A study of Mus musculus with 8 samples.

Results

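The 49 genes described here copy the genome in S phase and divide it in mitosis, and they were followed in RNA from whole mouse tracheae. Membership went by gene symbol: a gene was taken when its symbol was on the list and had a row in both deposited count tables. All 49 listed genes were found, out of 37282 symbols in both tables, and all 49 passed the filter on low counts. The genotype WlsShhCre names Cre driven from the Shh locus, which acts in the epithelium lining the airway, and the gene Wls, whose product carries Wnt ligands to the cell surface. The 8 libraries form 4 groups of 2, namely WlsShhCre tracheae at the later embryonic stage (E13.5), control tracheae at E13.5, WlsShhCre tracheae at the earlier stage (E11.5) and control tracheae at E11.5. The stage names give days of embryonic development. WlsShhCre tracheae are called mutants. The alleles that controls carried, the strain and the number of embryos per library are not given in the sources used here, so p-values measure the spread between libraries, which may be partly technical.

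Before DNA can be copied, the licensing factors Cdc6 and Cdt1 load the Mcm2 to Mcm7 helicase onto replication origins, and cyclin-dependent kinases then fire the origins. Mitosis follows when cyclin B with Cdk1 is switched on, and the spindle checkpoint holds the cell until every chromosome is attached. Transcripts of most of these genes rise and fall with the cycle under E2F, B-Myb and FoxM1. In a whole organ their sum can therefore change with the share of cycling cells, which was not measured here. In RNA from whole tissue, fewer cycling cells and less transcript per cell cannot be told apart.

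Total estimated counts were 18.48 and 16.8 M in E13.5 mutants, 10.6 and 10.6 M in E13.5 controls, 9.898 and 11.4 M in E11.5 mutants, and 10.96 and 11.9 M in E11.5 controls, so sequencing was deepest in the E13.5 mutants. Levels are CPM, counts put on a common library size with factors from the trimmed mean of M-values, and the members had 205 to 12075 counts in a library. Wls was lower in mutants at both stages, with log2 fold changes of -1.16 (SE 0.06, adjusted p = 1.44e-07) at E13.5 and -0.49 (SE 0.06, adjusted p = 0.00298) at E11.5. Xist, a transcript of female cells, had 6.34 and 1224 CPM in E13.5 mutants, 2673 and 1841 CPM in E13.5 controls, 846 and 526 CPM in E11.5 mutants, and 1168 and 1847 CPM in E11.5 controls. The Y-linked Ddx3y had 107 and 66.8 CPM in E13.5 mutants, 19.8 and 48.2 CPM in E13.5 controls, 52.2 and 61.8 CPM in E11.5 mutants, and 43.2 and 32.8 CPM in E11.5 controls. At each stage the mutants were below the controls in Xist and above them in Ddx3y, and E13.5 mutant replicate 1 had almost no Xist. What the sex makeup contributes to the genotype effects was not tested.

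Between the stages the 49 genes were lower together, in both genotypes. Their summed level was 6069 and 5921 CPM in E13.5 mutants, 6078 and 6222 CPM in E13.5 controls, 8212 and 8533 CPM in E11.5 mutants, and 8211 and 8325 CPM in E11.5 controls. Each of the 4 E13.5 sums was below each of the 4 E11.5 sums, while mutant and control sums of a stage lay close together. As a share of all counts the members took 0.611% and 0.604% in E13.5 mutants, 0.614% and 0.625% in E13.5 controls, 0.815% and 0.846% in E11.5 mutants, and 0.813% and 0.815% in E11.5 controls. With edgeR's quasi-likelihood test and an adjusted p under 0.05, 46 of 49 members were lower at E13.5 than at E11.5 in mutants, where 24.6% of all 14903 genes tested were lower. In controls 47 of 49 were lower at E13.5, beside 21.0% of all genes tested. No member had a log2 fold change above 0 in either genotype, while 23.9% of genes tested were called higher at E13.5 in mutants and 21.4% in controls. The median log2 fold change of the members, E13.5 over E11.5, was -0.53 in mutants and -0.46 in controls, beside 0.01 and 0.00 over all genes tested. The members' median was lower than the values of all but 9.95% of genes tested in mutants and 9.50% in controls.

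The libraries of the stages did not overlap for most members. Both E13.5 libraries were below both E11.5 libraries for 49 of 49 members in mutants, where this held for 37.2% of all genes, and for 48 of 49 in controls, where it held for 36.3%. All 4 E13.5 libraries were below all 4 E11.5 libraries for 47 members, against 24.9% of genes tested. There were 46 members called lower in both genotypes, against 16.4% of genes tested. The exceptions were Ccne2 and E2f1 in both genotypes, and Kif23 in mutants. Each stage was deposited as its own table, so stage and whatever differed between the making of the tables cannot be told apart. The length of the gene model behind the counts, as implied by count and read density, was equal within 0.1% in the tables for all 49 members, while it differed for 1018 of the 14677 genes in which it could be compared. The members' median stage change in mutants was -0.54 without E13.5 mutant replicate 1 and -0.52 without E13.5 mutant replicate 2. What the sex makeup contributes to the stage effects was not tested.

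**Figure D1:**
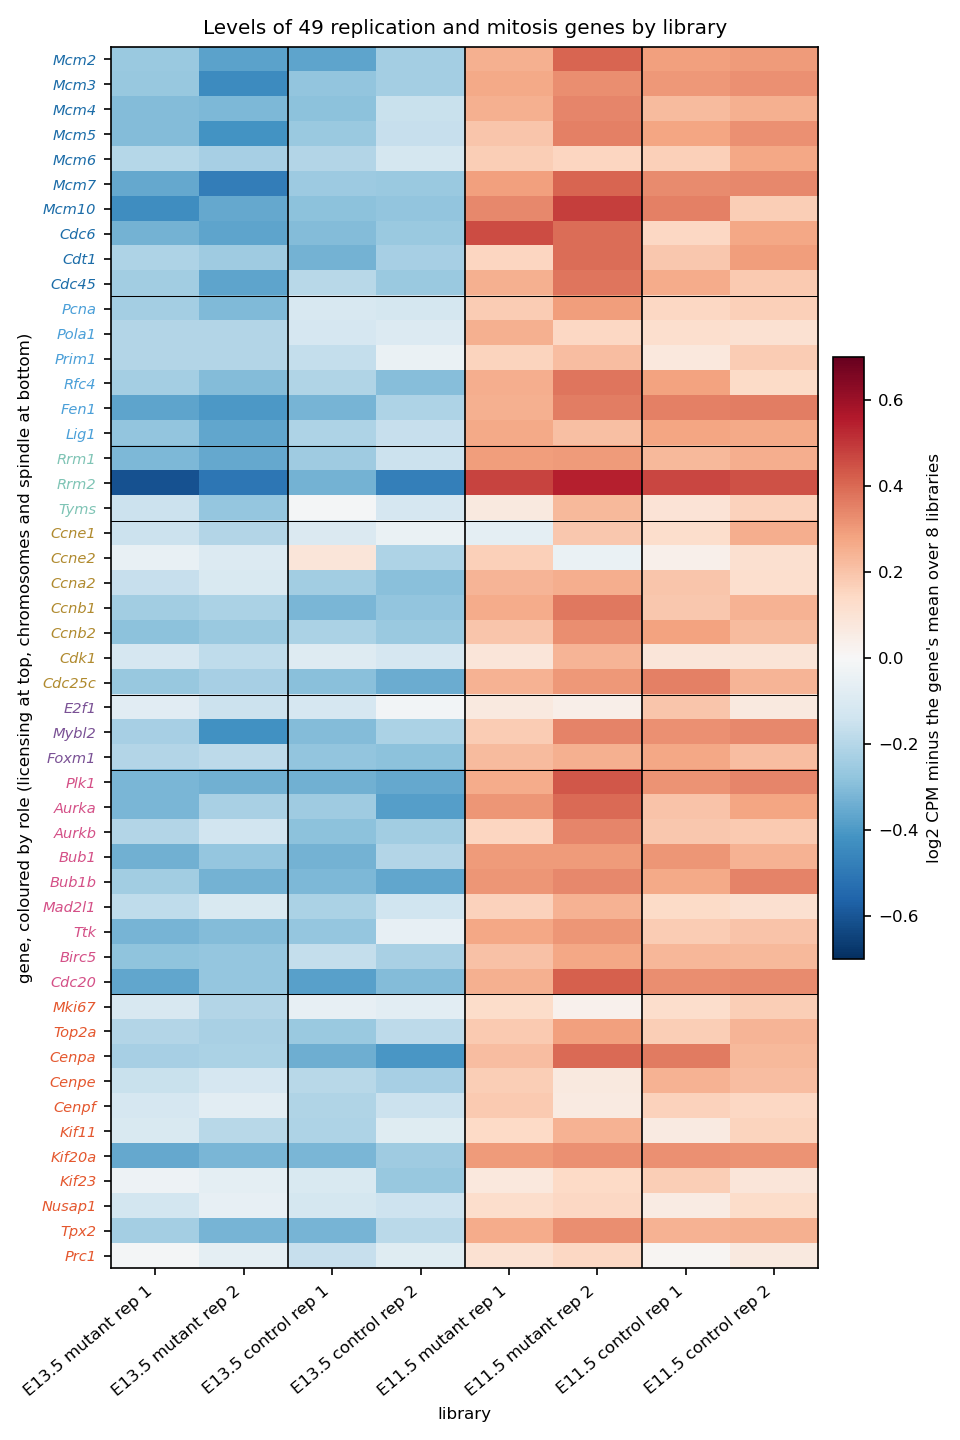
Each row is 1 of the 49 genes and each column 1 library, with colour giving log2 CPM minus the gene's own mean over the 8 libraries. The 4 E13.5 columns at the left are lower than the 4 E11.5 columns at the right in 47 rows, and Rrm2 has the widest contrast.

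Promoters of some members are printed because their stage changes ran together and their cell cycle elements are well known in vertebrates. Windows of 250 bases before the RefSeq transcript start, build GRCm38.p6, were matched by gene identifier. They were found for 41 of the 49 members and for 11491 of all genes tested. Searched on both strands were the cell cycle gene homology region (CHR) as TTTGAA and, in a variant form, TTCGAA, the CCAAT box, and E2F letters. The E2F letters searched were TTCCCGC and also TTGGCGC, and further TTCGCGC as well as TTGCCGC. Of these, TTCGAA reads the same on both strands, and a TTGGCGC match on one strand can share bases with a TTCGCGC match on the other. A gene with several windows was counted when any held the letters, and base composition was not matched. CHR letters stood in the windows of 12 of 41 members (29.3%) and of 14.7% of all genes. CCAAT stood in 29 members (70.7%) and 40.1% of all genes, and E2F letters in 12 members (29.3%) and 15.6% of all genes. E2F letters were found for 9 of the 18 members of the replication roles and for 1 of the 17 mitosis members, while CHR letters were found for 4 of 18 and 6 of 17. A match of letters describes the window and shows no binding.

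The last 180 bases before the start are given 5′ to 3′ on the gene's own strand from RefSeq, with matches in capitals. Rrm2 is shown as the member with the largest stage change, Mcm5 and Mcm6 for their repeated E2F letters, Cdk1 for holding all 3 kinds, and Cdc20 for CHR and CCAAT without E2F letters.
Rrm2 (chr12:24708074-24708253, plus strand): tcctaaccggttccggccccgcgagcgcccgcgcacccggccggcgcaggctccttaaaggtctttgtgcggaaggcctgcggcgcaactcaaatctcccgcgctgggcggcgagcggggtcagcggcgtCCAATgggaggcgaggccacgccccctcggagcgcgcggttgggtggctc
Mcm5 (chr8:75109329-75109508, plus strand): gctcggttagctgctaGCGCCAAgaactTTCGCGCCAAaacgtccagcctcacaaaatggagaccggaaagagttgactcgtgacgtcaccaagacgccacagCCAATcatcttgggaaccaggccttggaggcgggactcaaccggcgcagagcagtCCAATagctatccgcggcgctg
Mcm6 (chr1:128359706-128359885, minus strand): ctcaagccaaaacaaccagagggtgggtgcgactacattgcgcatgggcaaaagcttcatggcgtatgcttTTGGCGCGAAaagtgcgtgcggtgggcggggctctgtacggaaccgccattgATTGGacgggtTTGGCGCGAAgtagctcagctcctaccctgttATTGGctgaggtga
Cdk1 (chr10:69352913-69353092, minus strand): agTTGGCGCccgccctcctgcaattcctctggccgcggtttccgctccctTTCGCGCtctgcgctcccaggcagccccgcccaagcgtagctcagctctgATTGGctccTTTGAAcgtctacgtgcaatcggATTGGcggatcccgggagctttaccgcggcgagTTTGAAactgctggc
Cdc20 (chr4:118437344-118437523, minus strand): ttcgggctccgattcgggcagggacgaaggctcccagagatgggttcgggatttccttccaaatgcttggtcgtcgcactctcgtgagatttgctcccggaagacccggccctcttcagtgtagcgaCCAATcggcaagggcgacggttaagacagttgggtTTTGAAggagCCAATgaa

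In Mcm5 and Mcm6 the E2F capitals run over 10 bases where matches on opposite strands overlap, and each of the 2 genes also has CCAAT letters nearer to the start. In Cdk1 the E2F letters come first, and CCAAT (read as ATTGG) and CHR letters follow in alternation up to the start. The printed stretch of Rrm2 holds CCAAT letters alone, and that of Cdc20 has CHR letters between a pair of CCAAT boxes. These promoters thus differ in their letters, while all 5 genes were lower at E13.5.

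The 10 licensing and helicase genes all fell in both genotypes, with medians of -0.64 in mutants and -0.52 in controls. Mcm2, a subunit of the helicase ring, had 192 and 177 CPM in E13.5 mutants, 178 and 195 CPM in E13.5 controls, 273 and 305 CPM in E11.5 mutants, and 281 and 283 CPM in E11.5 controls. Mcm7, another subunit, had 176 and 161 CPM in E13.5 mutants, 189 and 188 CPM in E13.5 controls, 275 and 299.5 CPM in E11.5 mutants, and 283 and 284 CPM in E11.5 controls. For both genes all E13.5 libraries lay well below all E11.5 libraries, and for Mcm7 the E13.5 mutants were the lowest of all. The stage change of Mcm2 was -0.65 (SE 0.07, adjusted p = 5.43e-06) in mutants and -0.60 (SE 0.07, adjusted p = 1.95e-05) in controls. For Mcm7 it was -0.77 (SE 0.06, adjusted p = 4.72e-07) in mutants and -0.59 (SE 0.06, adjusted p = 8.54e-06) in controls. Mcm10, which helps to turn the loaded helicase into an active fork, had 32.5 and 34.2 CPM in E13.5 mutants, 35.95 and 36.2 CPM in E13.5 controls, 55.3 and 61.3 CPM in E11.5 mutants, and 56.02 and 49.4 CPM in E11.5 controls. The helicase loader Cdc6 had 34.5 and 33.7 CPM in E13.5 mutants, 35.2 and 36.4 CPM in E13.5 controls, 59.7 and 56.96 CPM in E11.5 mutants, and 48.1 and 52.4 CPM in E11.5 controls. In both genes the E13.5 libraries were at similar levels and the E11.5 mutants were the highest group, although for Mcm10 E11.5 control replicate 1 lay between the E11.5 mutants. The change in mutants, -0.81 for Mcm10 and -0.77 for Cdc6, was larger in size than that in controls, -0.55 and -0.49. The test of that difference did not pass for Mcm10 (-0.26 (SE 0.12, adjusted p = 0.319)) or Cdc6 (-0.28 (SE 0.11, adjusted p = 0.22)). Their stage changes passed in mutants, with adjusted p of 5.72e-06 for Mcm10 and 3.13e-06 for Cdc6, and in controls, with 0.000269 and 0.00027. The other 6, the ring subunits Mcm3, Mcm4, Mcm5 and Mcm6, the loader Cdt1 and the helicase cofactor Cdc45, changed by values between Mcm3 at -0.65 and Mcm6 at -0.38 in mutants, and between Mcm3 at -0.57 and Mcm6 at -0.38 in controls.

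The 6 genes of DNA synthesis at the fork fell in both genotypes, with medians of -0.53 in mutants and -0.37 in controls. Pcna, the sliding clamp that tethers DNA polymerases, had 212 and 202 CPM in E13.5 mutants, 231 and 229.7 CPM in E13.5 controls, 283 and 305 CPM in E11.5 mutants, and 276 and 279.9 CPM in E11.5 controls. The E13.5 mutants were its lowest group and the E13.5 controls came next, with no overlap between them or with E11.5. Its stage change was -0.51 (SE 0.06, adjusted p = 8.99e-06) in mutants and -0.27 (SE 0.06, adjusted p = 0.00174) in controls. Fen1, the nuclease that trims Okazaki fragments, had 51.8 and 50.6 CPM in E13.5 mutants, 53.5 and 57.7 CPM in E13.5 controls, 79.4 and 85.8 CPM in E11.5 mutants, and 85.4 and 85.7 CPM in E11.5 controls. Again every E13.5 library was below every E11.5 library, by about the same distance in both genotypes. Fen1 changed by -0.69 (SE 0.07, adjusted p = 3.41e-06) in mutants and -0.62 (SE 0.07, adjusted p = 1.63e-05) in controls. The polymerase alpha subunit Pola1, the primase Prim1, the clamp loader subunit Rfc4 and the ligase Lig1 ranged between -0.59 (Rfc4) and -0.39 (Prim1) in mutants, and between -0.46 (Lig1) and -0.22 (Pola1) in controls. In controls the calls of Pola1 and Prim1 were each lost without E13.5 control replicate 1 (adjusted p = 0.0661 and 0.173), Pola1 also without E11.5 control replicate 1 (0.053) and Prim1 without E11.5 control replicate 2 (0.151).

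All 3 genes of nucleotide supply fell. Rrm2, the regulated subunit of ribonucleotide reductase, which makes deoxynucleotides, had 87.4 and 93.8 CPM in E13.5 mutants, 106 and 95.8 CPM in E13.5 controls, 185 and 194 CPM in E11.5 mutants, and 184 and 182 CPM in E11.5 controls. The E13.5 libraries of both genotypes stood far below the E11.5 libraries, and the E13.5 mutants were the lowest. Its change was the largest among the members in each genotype, -1.07 (SE 0.06, adjusted p = 3.7e-08) in mutants and -0.86 (SE 0.06, adjusted p = 5.27e-07) in controls. Rrm1, the large subunit of the same enzyme, had 244 and 237 CPM in E13.5 mutants, 255 and 273 CPM in E13.5 controls, 371 and 373 CPM in E11.5 mutants, and 355 and 362 CPM in E11.5 controls. It too was lowest in E13.5 mutants and next in E13.5 controls, without overlap, and it changed by -0.63 (SE 0.05, adjusted p = 1.13e-06) in mutants and -0.44 (SE 0.05, adjusted p = 3.98e-05) in controls. Tyms, thymidylate synthase, changed less, by -0.36 (SE 0.07, adjusted p = 0.000811) in mutants and -0.19 (SE 0.07, adjusted p = 0.0417) in controls. Its call in controls was lost without any 1 of the 4 control libraries, with adjusted p = 0.0532 without E13.5 replicate 1, 0.22 without E13.5 replicate 2, 0.0738 without E11.5 replicate 1 and 0.191 without E11.5 replicate 2.

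Among the 7 cyclins and genes of the Cdk1 switch, 6 fell in each genotype, with medians of -0.38 in mutants and -0.42 in controls. Ccnb1, the cyclin that activates Cdk1 for mitosis, had 139 and 141 CPM in E13.5 mutants, 132 and 136 CPM in E13.5 controls, 197 and 213 CPM in E11.5 mutants, and 188 and 196 CPM in E11.5 controls. Cdk1, the kinase itself, had 114 and 109 CPM in E13.5 mutants, 116 and 113 CPM in E13.5 controls, 131 and 145 CPM in E11.5 mutants, and 131 and 131 CPM in E11.5 controls. The stages did not overlap for either gene, but the gap was narrower for Cdk1. Ccnb1 changed by -0.55 (SE 0.06, adjusted p = 5.33e-06) in mutants and -0.52 (SE 0.06, adjusted p = 1.72e-05) in controls. Cdk1 changed by -0.31 (SE 0.06, adjusted p = 0.000995) in mutants and -0.19 (SE 0.06, adjusted p = 0.024) in controls. The Cdk1 call in controls was lost without E13.5 replicate 1 (adjusted p = 0.0675), E13.5 replicate 2 (0.103), E11.5 replicate 1 (0.0828) or E11.5 replicate 2 (0.0917). The S phase cyclin Ccna2, the mitotic cyclin Ccnb2 and Cdc25c, the phosphatase that activates Cdk1, changed by -0.38, -0.53 and -0.52 in mutants and by -0.42, -0.49 and -0.61 in controls. The cyclins of S phase entry are Ccne1 and Ccne2. Ccne1 changed by -0.24 (SE 0.09, adjusted p = 0.0328) in mutants and -0.26 (SE 0.09, adjusted p = 0.0276) in controls. Its call was lost in mutants without E13.5 replicate 1 (0.0587), E13.5 replicate 2 (0.131) or E11.5 replicate 2 (0.398), and in controls without E13.5 replicate 1 (0.135), E13.5 replicate 2 (0.0665) or E11.5 replicate 2 (0.188). Ccne2 had 22.99 and 22.3 CPM in E13.5 mutants, 25.3 and 20.5 CPM in E13.5 controls, 26.7 and 23.02 CPM in E11.5 mutants, and 24.4 and 25.7 CPM in E11.5 controls. Its control libraries overlapped between the stages, and neither genotype passed, with -0.13 (SE 0.11, adjusted p = 0.369) in mutants and -0.13 (SE 0.12, adjusted p = 0.397) in controls.

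Of the 3 transcription factors, Mybl2 and Foxm1 fell and E2f1 did not pass. E2f1, which turns on genes for S phase, had 36.00 and 34.2 CPM in E13.5 mutants, 35.01 and 37.5 CPM in E13.5 controls, 39.8 and 39.1 CPM in E11.5 mutants, and 43.4 and 39.8 CPM in E11.5 controls. The E13.5 libraries were the lower ones within each genotype, by little, with -0.17 (SE 0.08, adjusted p = 0.104) in mutants and -0.20 (SE 0.08, adjusted p = 0.0693) in controls. Mybl2, or B-Myb, which acts on genes of the G2 phase and mitosis, changed by -0.59 (SE 0.09, adjusted p = 9.84e-05) in mutants and -0.59 (SE 0.09, adjusted p = 0.000177) in controls. Foxm1, which acts on the same class of genes, changed by -0.43 (SE 0.05, adjusted p = 2.62e-05) in mutants and -0.52 (SE 0.05, adjusted p = 9.72e-06) in controls.

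All 9 mitotic kinases and spindle checkpoint genes fell in both genotypes, with medians of -0.60 in mutants and -0.54 in controls. Plk1, a kinase needed for mitotic entry and spindle assembly, had 68.4 and 67.4 CPM in E13.5 mutants, 67.4 and 66.5 CPM in E13.5 controls, 102 and 115 CPM in E11.5 mutants, and 106 and 108 CPM in E11.5 controls. Cdc20, which activates the ubiquitin ligase that ends mitosis, had 88.8 and 94.8 CPM in E13.5 mutants, 87.9 and 92.6 CPM in E13.5 controls, 136 and 153 CPM in E11.5 mutants, and 144 and 144 CPM in E11.5 controls. Bub1b, a checkpoint protein of the kinetochore, had 133 and 126 CPM in E13.5 mutants, 127 and 123 CPM in E13.5 controls, 195 and 199 CPM in E11.5 mutants, and 189 and 200.4 CPM in E11.5 controls. In all 3 genes the mutant and control libraries of a stage stood side by side and the stages were far apart. Plk1 changed by -0.68 (SE 0.07, adjusted p = 3.04e-06) in mutants and -0.68 (SE 0.07, adjusted p = 7.33e-06) in controls. Cdc20, whose promoter is printed above, changed by -0.66 (SE 0.07, adjusted p = 4.31e-06) in mutants and -0.67 (SE 0.07, adjusted p = 7.65e-06) in controls. Bub1b changed by -0.61 (SE 0.06, adjusted p = 2.23e-06) in mutants and -0.64 (SE 0.06, adjusted p = 2.75e-06) in controls. The other 6 are the kinases Aurka, Aurkb, Bub1 and Ttk, the Aurora B partner Birc5 and the checkpoint protein Mad2l1. They lay between -0.63 (Aurka) and -0.34 (Mad2l1) in mutants, and between -0.56 (Aurka) and -0.30 (Mad2l1) in controls.

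The 11 genes of chromosomes, kinetochore and spindle had the smallest median of size among the roles, -0.26 in mutants and -0.33 in controls, with 10 called lower in mutants and 11 in controls. Mki67, the chromosome coat protein that marks cycling cells, had 649 and 608 CPM in E13.5 mutants, 673 and 668 CPM in E13.5 controls, 766 and 715 CPM in E11.5 mutants, and 764 and 789.6 CPM in E11.5 controls. Top2a, the topoisomerase that untangles sister chromatids, had 538 and 530.4 CPM in E13.5 mutants, 518 and 546 CPM in E13.5 controls, 706 and 758 CPM in E11.5 mutants, and 698 and 732 CPM in E11.5 controls. For Mki67 the stages were separated by a small gap, and for Top2a by a wider one. Mki67 changed by -0.24 (SE 0.06, adjusted p = 0.00435) in mutants and -0.21 (SE 0.06, adjusted p = 0.00989) in controls. Its call in controls was lost without E13.5 replicate 1 (adjusted p = 0.0502), E13.5 replicate 2 (0.0555) or E11.5 replicate 2 (0.0762). Top2a changed by -0.45 (SE 0.06, adjusted p = 3.21e-05) in mutants and -0.43 (SE 0.06, adjusted p = 8.05e-05) in controls. Cenpa, the histone variant that marks centromeres, had 68.3 and 68.8 CPM in E13.5 mutants, 63.4 and 60.6 CPM in E13.5 controls, 93.5 and 106 CPM in E11.5 mutants, and 103 and 94.1 CPM in E11.5 controls. Its E13.5 controls were the lowest group and the E13.5 mutants came next. Cenpa changed by -0.54 (SE 0.07, adjusted p = 4.77e-05) in mutants and -0.67 (SE 0.07, adjusted p = 1.64e-05) in controls. Kif20a, a kinesin of cell division, changed by -0.65 in mutants and -0.60 in controls, and Tpx2, a spindle assembly factor, by -0.57 and -0.50. The kinetochore proteins Cenpe and Cenpf, the spindle kinesin Kif11, the spindle protein Nusap1 and Prc1, which bundles the midzone, were between -0.34 (Kif11) and -0.17 (Prc1) in mutants, and between -0.44 (Cenpe) and -0.16 (Prc1) in controls. Kif23, a midzone kinesin, had -0.16 (SE 0.06, adjusted p = 0.0598) in mutants and -0.31 (SE 0.07, adjusted p = 0.00198) in controls. Prc1 was no longer called in mutants without E13.5 replicate 2 (0.143) or E11.5 replicate 2 (0.12), nor in controls without E13.5 replicate 1 (0.201), E11.5 replicate 1 (0.0609) or E11.5 replicate 2 (0.171). Kif11 was no longer called in controls without E13.5 replicate 1 (0.0761) or E11.5 replicate 2 (0.0706), and Nusap1 without E11.5 replicate 2 (0.0623).

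No member was called by genotype at either stage. At E13.5, 0 of 49 members passed edgeR's test in mutants against controls, where 11.8% of all genes tested were called. At an unadjusted p under 0.05 there were 7 members (14.3%) and 23.9% of all genes. DESeq2 and limma-voom each called 0 members, with 3 and 6 at an unadjusted p under 0.05. The members' median was -0.03 and they ranged between -0.16 (Mcm7) and 0.14 (Cenpa). All 49 of their 95% intervals lay within 0.5 of 0 on the log2 scale, the lowest bound being -0.32 and the highest 0.30. At E11.5, 0 of 49 passed in edgeR, DESeq2 or limma-voom, beside 0.362% of all genes in edgeR. The unadjusted p was under 0.05 for 1, 0 and 1 members with these tools, and 7.54% of all genes in edgeR. The median was 0.02, though 0.08 without E11.5 mutant replicate 1 and -0.0089 without E11.5 mutant replicate 2, with the range -0.12 (Ccne1) to 0.21 (Cdc6), and the bounds of all 49 intervals lay between -0.31 and 0.38. The interval does not exclude small shifts, and a p that misses the threshold does not show that a gene was equal in both genotypes.

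The members with the smallest genotype p at E13.5 were Pcna, Mcm7 and Rrm1, whose mutant libraries were both below both control libraries, as given above. Pcna differed by -0.15 (SE 0.06, adjusted p = 0.1), with a 95% interval of -0.28 to -0.03. Mcm7 differed by -0.16 (SE 0.06, adjusted p = 0.113) and Rrm1 by -0.14 (SE 0.05, adjusted p = 0.141). Both E13.5 mutant libraries were below both controls for 18 members and above them for 11, beside 27.2% and 27.3% of all genes tested. At E11.5 the smallest p belonged to Cdc6 at 0.21 (SE 0.08, adjusted p = 0.429), Cenpe at -0.11 (SE 0.06, adjusted p = 0.754) and Mcm10 at 0.15 (SE 0.08, adjusted p = 0.792). There the mutants were above both controls for 13 members and below them for 3, beside 18.1% and 17.9% of all genes.

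Of the core genes, Mki67 differed between mutants and controls by -0.09 (SE 0.06, adjusted p = 0.372) at E13.5 and -0.07 (SE 0.06, adjusted p = 0.913) at E11.5. Top2a differed by 0.01 (SE 0.06, adjusted p = 0.969) at E13.5 and 0.03 (SE 0.06, adjusted p = 0.972) at E11.5. Mcm2 differed by -0.02 (SE 0.07, adjusted p = 0.926) at E13.5 and 0.04 (SE 0.07, adjusted p = 0.977) at E11.5. None of these 3 differences reached the size of the gene's stage change. Ccnb1 differed by 0.07 (SE 0.06, adjusted p = 0.549) at E13.5 and 0.10 (SE 0.06, adjusted p = 0.792) at E11.5. Cdk1 differed by -0.04 (SE 0.06, adjusted p = 0.745) at E13.5 and 0.08 (SE 0.06, adjusted p = 0.906) at E11.5. E2f1 differed by -0.05 (SE 0.08, adjusted p = 0.794) at E13.5 and -0.08 (SE 0.08, adjusted p = 0.944) at E11.5. For these 3 genes too the genotype values were smaller in size than the stage change. Pcna at E11.5 gave 0.08 (SE 0.06, adjusted p = 0.854).

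The roles leaned different ways at E13.5, as a description without a test. Of the 19 replication members (licensing, fork and nucleotide supply), 18 had a genotype value below 0, with a median of -0.10 and Cdt1 as the exception. Of the 20 mitosis members (kinases, checkpoint, chromosomes and spindle), 7 were below 0 and the median was 0.03. Over all genes tested 50.6% were below 0. Of the 59 further mitosis genes described below, 35 were below 0, with a median of -0.03. Of the 48 further replication genes 36 were below 0, with a median of -0.06. At E11.5, 49.8% of all genes tested were below 0. The replication members had a median of 0.05 there with 5 below 0, and the mitosis members a median of 0.02 with 5 below 0. Without E11.5 mutant replicate 2 these medians were 0.0137 with 9 below 0 and -0.0082 with 10 below 0, and without E11.5 mutant replicate 1 they were 0.0884 and 0.0821. Without E11.5 control replicate 1 they were 0.0282 and 0.0124. The stage by genotype interaction, which asks whether the genotype effect differed between stages, passed for 0 of 49 members in edgeR, beside 3.33% of all genes. In edgeR the unadjusted p was under 0.05 for 6 members (12.2%), beside 15.9% of all genes tested. It was under 0.05 for 2 members in DESeq2 and 6 in limma-voom, and these other tools also called 0. Pcna had the smallest p, -0.24 (SE 0.08, adjusted p = 0.147), followed by Cdc6, given above, and Rrm1 at -0.19 (SE 0.08, adjusted p = 0.248). The interaction was -0.02 (SE 0.08, adjusted p = 0.937) for Mki67, -0.03 (SE 0.08, adjusted p = 0.927) for Top2a and -0.05 (SE 0.10, adjusted p = 0.863) for Mcm2. None of these 3 was close to passing. It was -0.03 (SE 0.08, adjusted p = 0.904) for Ccnb1, -0.12 (SE 0.09, adjusted p = 0.59) for Cdk1 and 0.03 (SE 0.12, adjusted p = 0.942) for E2f1.

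**Figure D2:**
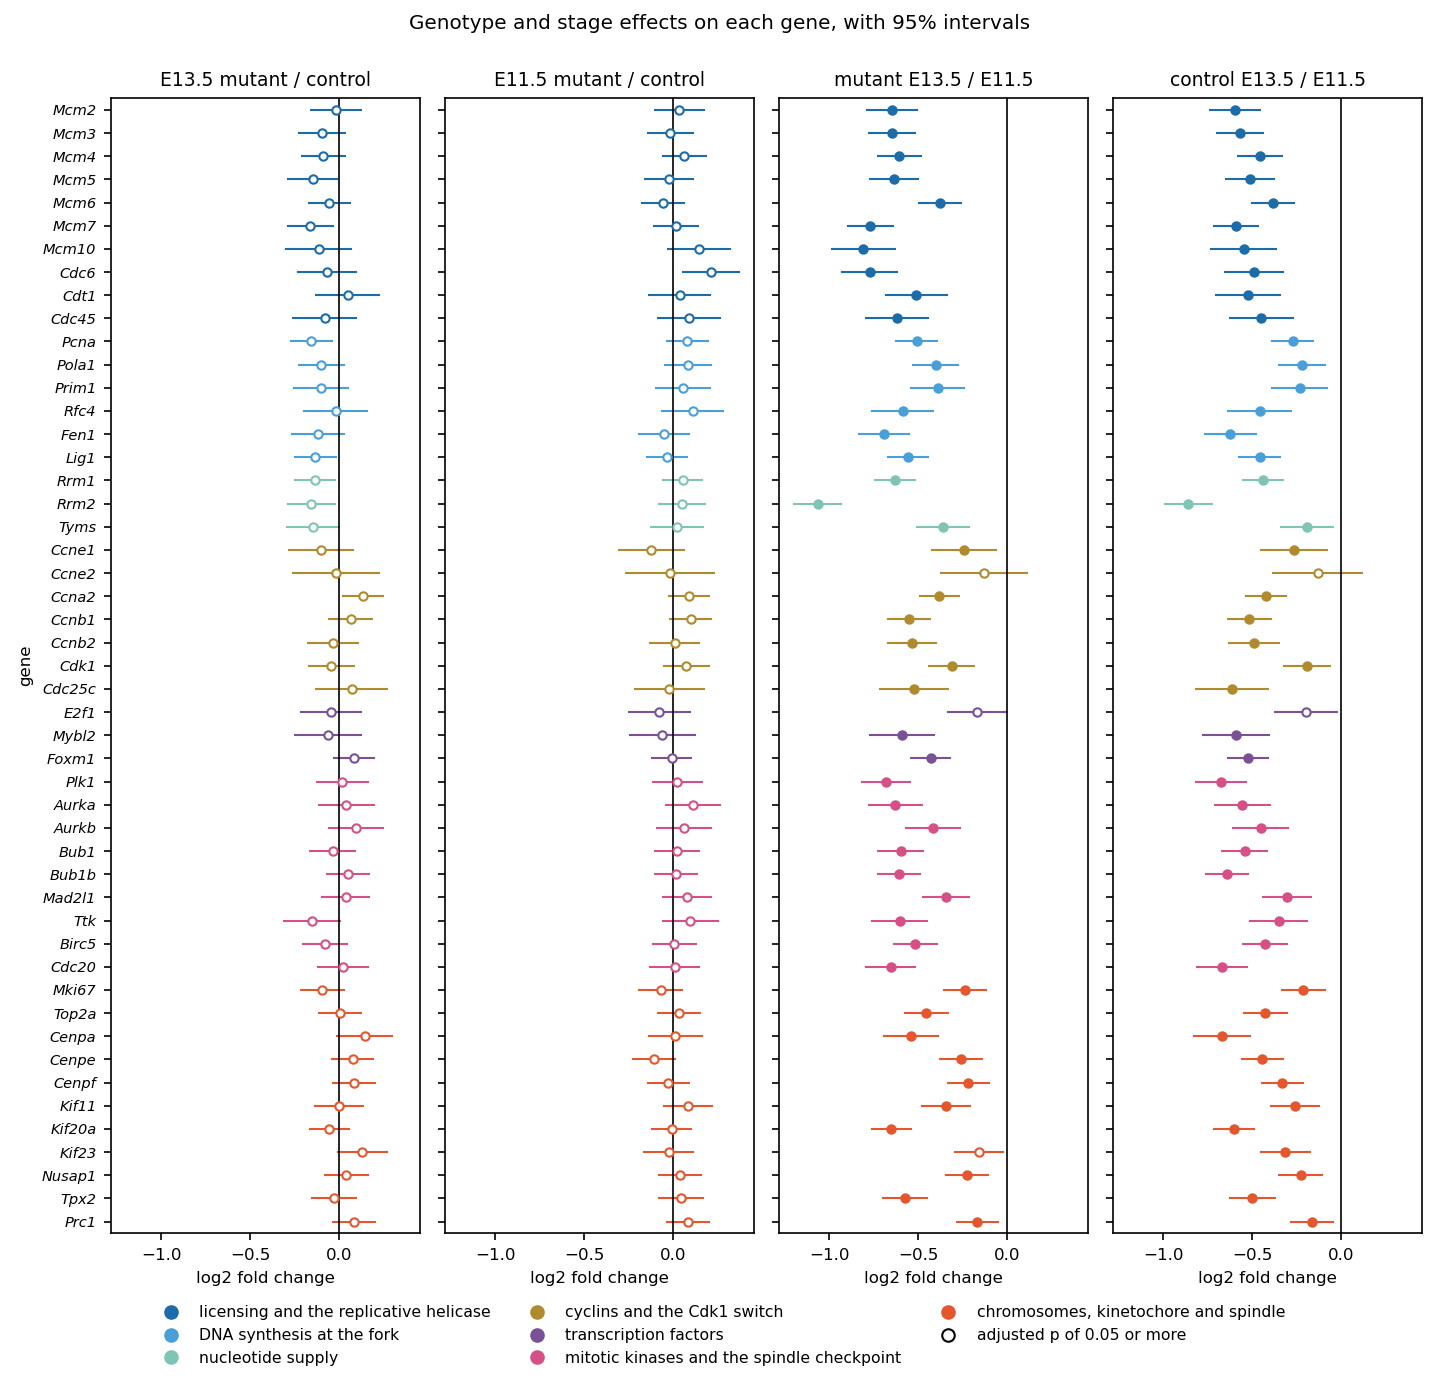
Points give the log2 fold change of each of the 49 genes with its 95% interval, for mutant over control at E13.5 and at E11.5 and for E13.5 over E11.5 in mutants and in controls, coloured by role. Open points did not pass: all 49 in both genotype panels, 3 in the mutant stage panel and 2 in the control stage panel.

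**Figure D3:**
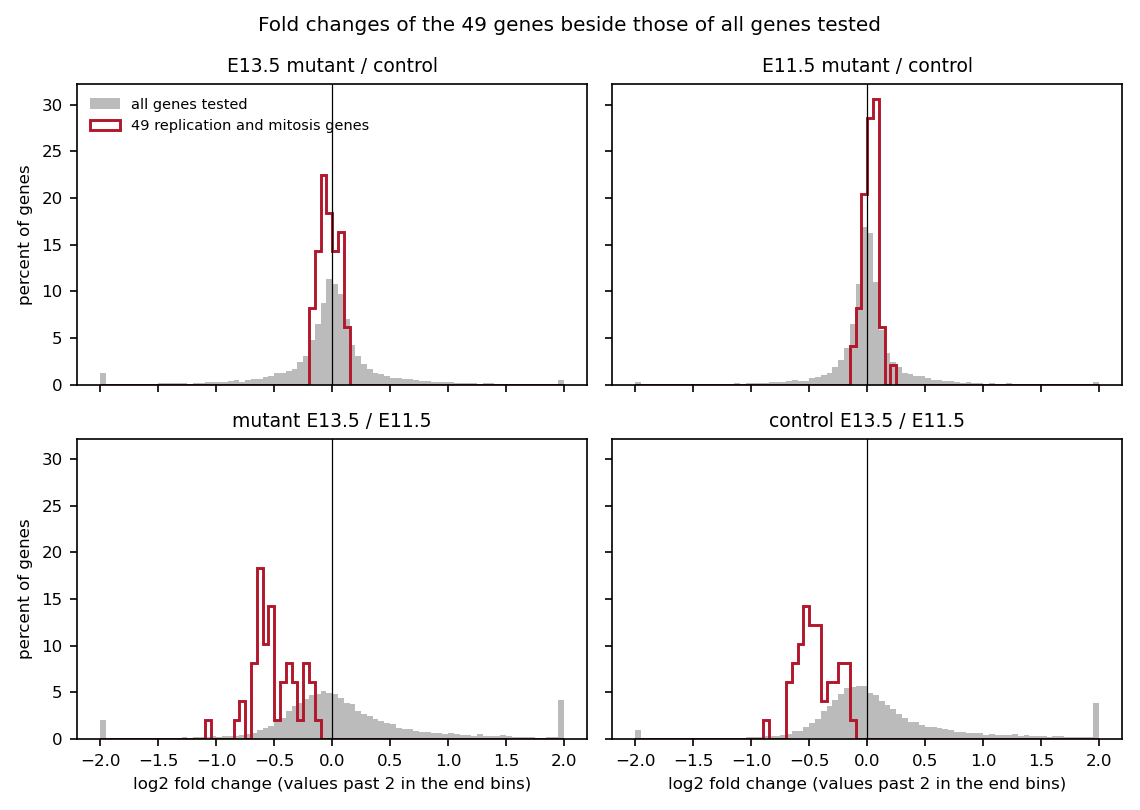
Histograms of log2 fold changes, in bins of 0.05, for the 49 genes (line) and all 14903 genes tested (grey), with the percent of genes in each set on the y axis. In the genotype panels the 49 genes cluster at 0, and in the stage panels they lie to the left, around -0.53 in mutants and -0.46 in controls.

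Levels between genes were compared on the deposited RPKM values, which are per kilobase of gene model. The mean level over the 8 libraries was highest for Pcna at 199.8 RPKM, above 98.2% of genes tested, followed by Top2a at 120.2 and Mcm6 at 100.1 RPKM. It was lowest for Ccne2 at 7.41 and Cdc6 at 9.46 RPKM, above 43.0% and 49.3% of genes tested. Pcna averaged 166 RPKM in E13.5 mutants, 184 in E13.5 controls, 232 in E11.5 mutants and 217 in E11.5 controls. Mki67, at 69.8 RPKM over all libraries, ranked 9 on this scale although it had the most counts of any member. Replicates of a group agreed closely: the median absolute log2 difference between replicates over the members was 0.06 in E13.5 mutants, 0.07 in E13.5 controls, 0.10 in E11.5 mutants and 0.05 in E11.5 controls. E11.5 mutant replicate 1 was below replicate 2 for 40 of the 49 members.

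Other genes of the same processes were mostly lower at E13.5 too. Over all genes tested 24.6% fell and 23.9% rose between the stages in mutants, and 21.0% fell and 21.4% rose in controls. Of 48 tested further replication genes, 43 fell in mutants and 36 in controls, and 0 rose, with medians of -0.42 and -0.36. DESeq2 called 38 of them lower in mutants and 32 in controls. Exo1, an exonuclease of DNA repair, changed by -0.89 in mutants and -0.64 in controls. The nuclease and helicase Dna2 changed by -0.81 and -0.65, and the chromatin assembly subunits Chaf1b and Chaf1a by -0.80 and -0.66 in mutants and by -0.67 and -0.59 in controls. Of 59 tested further mitosis genes, 53 fell and 1 rose in mutants, and 50 fell and 0 rose in controls, with medians of -0.39 and -0.35. DESeq2 called 42 of them lower and 1 higher in mutants, and 37 lower and 0 higher in controls. Ccnf, an F-box cyclin, changed by -0.94 in mutants and -0.87 in controls. The condensin subunit Ncapd2 changed by -0.69 and -0.76, and the kinesins Kif2c and Kif22 by -0.67 and -0.64 in mutants and -0.60 and -0.61 in controls. The gene that rose in mutants was Cdc25b, a phosphatase that activates cyclin-dependent kinases, at 0.29 (SE 0.07, adjusted p = 0.00507). It had 66.6 and 69.1 CPM in E13.5 mutants, 63.3 and 57.1 CPM in E13.5 controls, 54.97 and 55.7 CPM in E11.5 mutants, and 51.7 and 56.2 CPM in E11.5 controls.

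By genotype at E13.5, 2 of the 48 further replication genes fell, beside 5.82% of all genes tested. They were the primase subunit Prim2 at -0.28 (SE 0.08, adjusted p = 0.0421) and the clamp loader subunit Rfc3 at -0.24 (SE 0.07, adjusted p = 0.0352). Each call was lost without any 1 of the 4 E13.5 libraries. DESeq2 called neither, with an adjusted p of 0.296 for Prim2 and 0.244 for Rfc3, while limma-voom called both. A fit of the 4 E13.5 libraries alone also lost both (0.0755 and 0.0575). With 1 library left out, the adjusted p for Prim2 lay between 0.0825 and 0.222, and for Rfc3 between 0.0929 and 0.186. Of the 59 further mitosis genes 0 passed at E13.5 in edgeR, DESeq2 or limma-voom, with 5, 0 and 3 at an unadjusted p under 0.05. At E11.5 neither list had a gene that passed in any of the 3 tools. The unadjusted p was under 0.05 there for 0 replication genes in each tool, and for 1, 1 and 2 mitosis genes in edgeR, DESeq2 and limma-voom.

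Regulators of G1 and of growth arrest were less uniform, and some of them responded to genotype at E13.5. Among 24 genes of the G1 cyclins and the Rb-E2F switch, 2 fell and 3 rose in E13.5 mutants, where 5.82% of all genes tested fell and 5.97% rose. Ccnd1, cyclin D1, which drives cells through G1, had 224 and 228 CPM in E13.5 mutants, 405 and 380.2 CPM in E13.5 controls, 269 and 295 CPM in E11.5 mutants, and 311 and 319.6 CPM in E11.5 controls. Myc, a growth-promoting transcription factor and like Ccnd1 a Wnt target in some tissues, had 27.6 and 29.4 CPM in E13.5 mutants, 52.1 and 48.9 CPM in E13.5 controls, 59.7 and 64.2 CPM in E11.5 mutants, and 62.3 and 68.04 CPM in E11.5 controls. In both genes the E13.5 mutants were below every other library. By genotype Ccnd1 changed by -0.80 (SE 0.06, adjusted p = 2.14e-06) at E13.5 and Myc by -0.83 (SE 0.08, adjusted p = 2.01e-05). The genes that rose were Ccnd2, cyclin D2, at 0.31 (SE 0.06, adjusted p = 0.00592), the retinoblastoma gene Rb1 at 0.41 (SE 0.09, adjusted p = 0.0105) and E2f2 at 0.42 (SE 0.10, adjusted p = 0.0166). The Ccnd2 call was lost without control replicate 1 (adjusted p = 0.0819). That of Rb1 was lost without mutant replicate 1 (0.0912), control replicate 1 (0.0524) or control replicate 2 (0.0779), and that of E2f2 without mutant replicate 1 (0.13) or control replicate 2 (0.126). DESeq2 called 2 lower and 1 higher in this list, Rb1 (0.0748) and E2f2 (0.121) being lost.

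Among 19 tested Cdk inhibitors and growth arrest genes, 4 rose and 1 fell in E13.5 mutants in edgeR. Beside them 5.97% of all genes tested rose and 5.82% fell. DESeq2 called 3 of the arrest genes higher and 0 lower, with 6 at an unadjusted p under 0.05. Btg2, an antiproliferative gene, had 75.2 and 71.7 CPM in E13.5 mutants, 44.00 and 44.6 CPM in E13.5 controls, 21.9 and 20.6 CPM in E11.5 mutants, and 19.7 and 23.4 CPM in E11.5 controls. Its paralog Btg1 had 187 and 192 CPM in E13.5 mutants, 145 and 148 CPM in E13.5 controls, 105 and 109 CPM in E11.5 mutants, and 109 and 109.6 CPM in E11.5 controls. In both genes the E13.5 mutants were the highest libraries, the E13.5 controls came next and all E11.5 libraries were lower. Btg2 differed by 0.73 (SE 0.08, adjusted p = 6.68e-05) and Btg1 by 0.37 (SE 0.05, adjusted p = 0.000437). The Cdk inhibitor Cdkn1b, or p27, differed by 0.35 (SE 0.08, adjusted p = 0.00958), and this was lost in DESeq2 (0.0731) and without control replicate 1 (0.0701) or 2 (0.0541). The Cdk inhibitor Cdkn1a, or p21, had 22.7 and 14.1 CPM in E13.5 mutants, 9.92 and 9.75 CPM in E13.5 controls, 6.11 and 8.47 CPM in E11.5 mutants, and 4.88 and 6.09 CPM in E11.5 controls. E13.5 mutant replicate 1 stood above all others, and the difference of 0.90 (SE 0.23, adjusted p = 0.0302) was 0.51 with an adjusted p of 0.184 without it, and lost without control replicate 1 (0.18) or 2 (0.159). It was lost as well in limma-voom (0.0629) and in a fit of the 4 E13.5 libraries (0.084). Ccng1, cyclin G1, a target of p53, fell, at -0.22 (SE 0.07, adjusted p = 0.0423), which was lost without each of mutant replicates 1 and 2 (0.239 and 0.0641) and control replicates 1 and 2 (0.219 and 0.132). DESeq2 (0.233) and a fit of the 4 E13.5 libraries (0.0516) lost it too. At E11.5 no gene of either list passed in edgeR, DESeq2 or limma-voom. The unadjusted p was under 0.05 for 2 G1 genes in each tool, and for 3, 1 and 3 arrest genes.

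Between the stages genes of the G1 list moved in both directions. In mutants 11 of 24 fell and 4 rose, beside 24.6% and 23.9% of all genes tested. In controls 10 fell and 5 rose, beside 21.0% and 21.4% of all genes. Those that rose most were the pocket protein gene Rbl2, at 1.04 in mutants and 0.87 in controls, and Rb1, at 0.86 and 0.41. Next came Ccnd2 at 0.57 and E2f2 at 0.54 in mutants, and Ccnd1 at 0.32 and Lin9, of the complex that binds cell cycle promoters, at 0.32 in controls. In controls the Rb1 call was lost without E11.5 replicate 2 (adjusted p = 0.0579), and Lin9 in DESeq2 (0.183) and without E13.5 replicates 1 and 2 (0.178 and 0.0745) or E11.5 replicate 2 (0.277). The largest falls were Myc at -1.12, the G1 kinase Cdk6 at -0.79, E2f5 at -0.76 and E2f3 at -0.68 in mutants. In controls they were Cdk6 at -0.91, Mycn at -0.76, E2f3 at -0.63 and the E2F partner Tfdp2 at -0.58.

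Between the stages the arrest genes that passed were all higher at E13.5. In mutants 10 of 19 rose and 0 fell, with a median of 0.47, beside 23.9% of all genes tested that rose. In controls 9 of 19 rose and 0 fell, with a median of 0.42, beside 21.4% of all genes. In mutants the largest were the transcription factor Klf4 at 2.05 (SE 0.31, adjusted p = 0.00446), Btg2 at 1.79 (SE 0.09, adjusted p = 8.14e-09), the Cdk4 and Cdk6 inhibitor Cdkn2c at 1.39 (SE 0.30, adjusted p = 0.00196) and Cdkn1a at 1.33 (SE 0.24, adjusted p = 0.00109). In controls they were Cdkn2c at 1.06 (SE 0.31, adjusted p = 0.0153), Btg2 at 1.04 (SE 0.09, adjusted p = 2.55e-06), the antiproliferative gene Tob1 at 0.87 (SE 0.13, adjusted p = 0.000183) and Ccng1 at 0.87 (SE 0.07, adjusted p = 1.01e-06). The Cdkn2c call in controls was lost in DESeq2 (adjusted p = 0.0674) and without E13.5 replicate 1 (0.1) or E11.5 replicate 1 (0.117). Summed over the list, arrest genes had 1992 and 1887 CPM in E13.5 mutants, 1795 and 1813 CPM in E13.5 controls, 1336 and 1353 CPM in E11.5 mutants, and 1343 and 1371 CPM in E11.5 controls. Each E13.5 sum was above each E11.5 sum. The single gene Cdkn1c made up a large part of each sum. It had 975.5 and 893 CPM in E13.5 mutants and 934 and 962 CPM in E13.5 controls. At E11.5 it had 612 and 671 CPM in mutants and 679 and 702.5 CPM in controls.

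**Figure D4:**
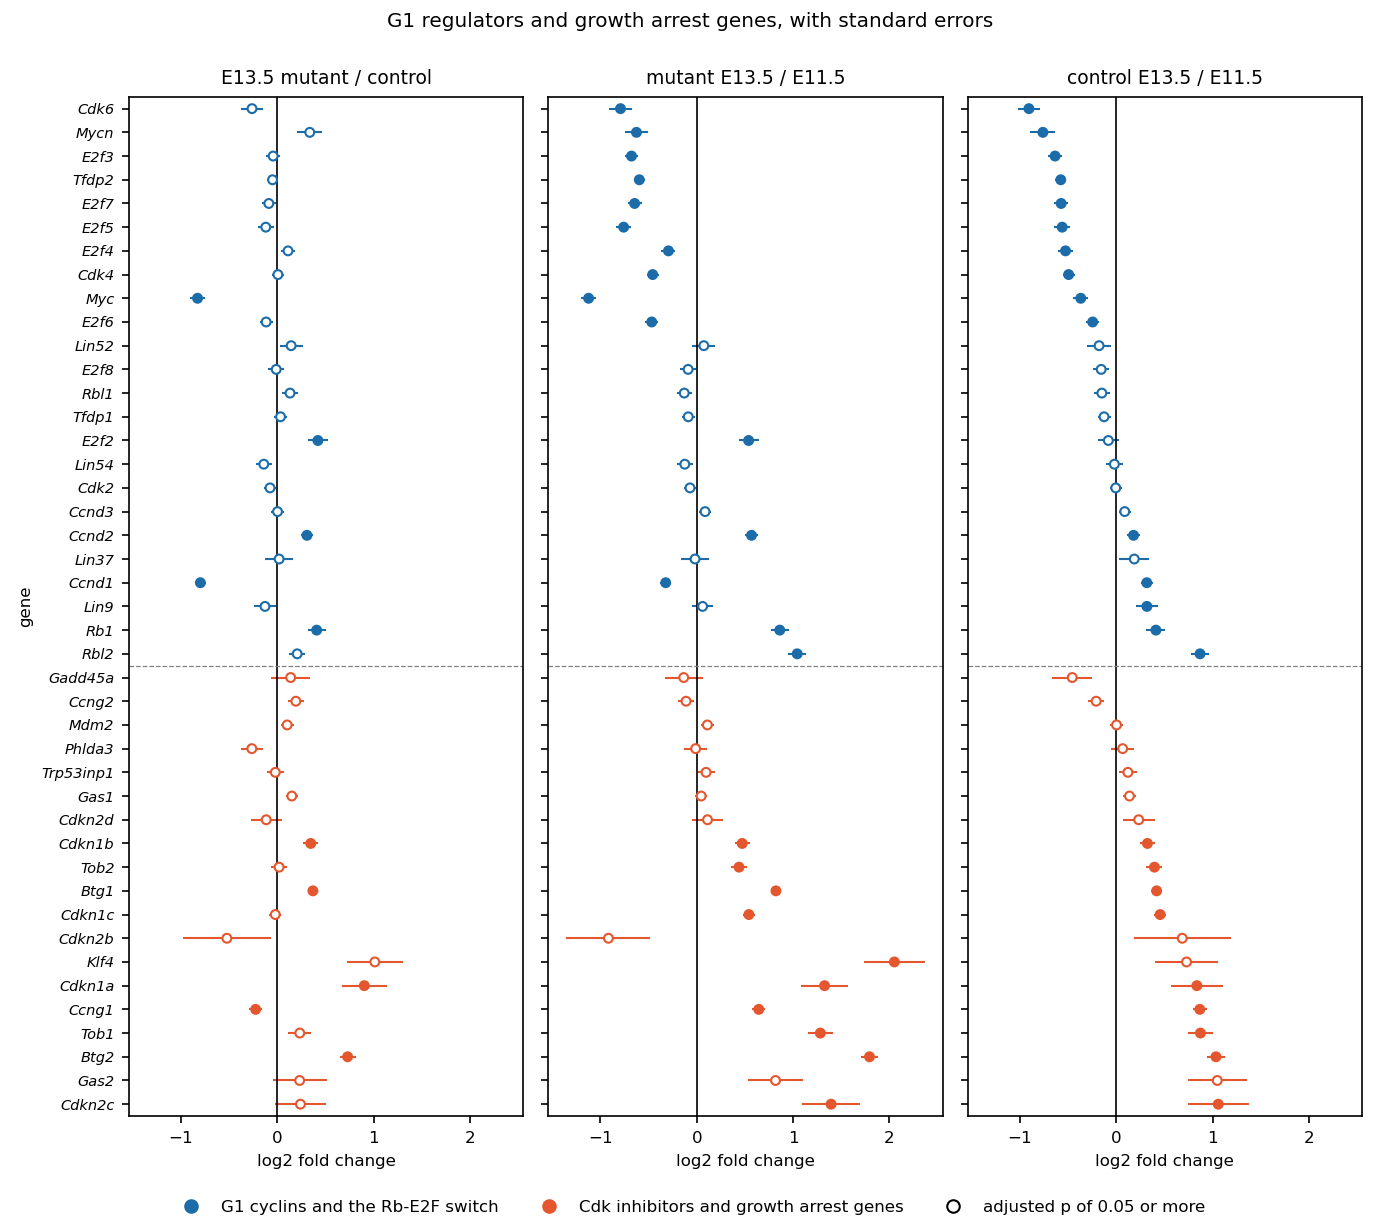
Log2 fold changes with standard errors are drawn for the 24 G1 and Rb-E2F genes (blue) and the 19 growth arrest genes (orange), for mutant over control at E13.5 and for E13.5 over E11.5 in mutants and in controls. Filled points passed at an adjusted p under 0.05, among them Ccnd1 and Myc below 0 and Btg2 above 0 in the left panel.

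Markers of the tissue's cell types moved with the stages and are given for comparison, and their part in the results on the 49 genes was not tested. Beside them, 24.6% of all genes tested fell and 23.9% rose between the stages in mutants. In controls 21.0% fell and 21.4% rose. By genotype at E13.5, 5.82% of all genes tested fell and 5.97% rose. The 11 erythroid markers found summed to 751 and 824 CPM in E13.5 mutants, 1612 and 1246 CPM in E13.5 controls, 5308 and 3098 CPM in E11.5 mutants, and 5282 and 8268 CPM in E11.5 controls, and 10 of 11 fell between the stages in each genotype. The 49 genes summed to 8212 and 8533 CPM in the same E11.5 mutants and to 8211 and 8325 CPM in the E11.5 controls. A relation between the erythroid sums and those of the 49 genes was not tested. The 12 epithelial markers summed to 1426 and 1470.0 CPM in E13.5 mutants, 934 and 979 CPM in E13.5 controls, 538 and 617 CPM in E11.5 mutants, and 564 and 467 CPM in E11.5 controls, with 12 of 12 higher at E13.5 in mutants and 11 in controls, and 10 higher in E13.5 mutants than in E13.5 controls. The 10 smooth muscle markers summed to 2767 and 3280.0 CPM in E13.5 mutants, 1296 and 1483 CPM in E13.5 controls, 480.3 and 411 CPM in E11.5 mutants, and 527 and 646 CPM in E11.5 controls, with 10 higher at E13.5 in mutants, 8 in controls and 6 higher by genotype at E13.5. The 11 cartilage markers summed to 1085 and 697 CPM in E13.5 mutants, 1521 and 1593 CPM in E13.5 controls, 749 and 712 CPM in E11.5 mutants, and 934 and 1019 CPM in E11.5 controls, and of 10 tested 5 were lower in E13.5 mutants than in E13.5 controls. At E13.5 mutants and controls did not overlap in any of these 4 sums. The 10 endothelial markers summed to 382 and 429.8 CPM in E13.5 mutants, 534 and 604 CPM in E13.5 controls, 718 and 571 CPM in E11.5 mutants, and 676 and 678 CPM in E11.5 controls, with 10 lower at E13.5 in mutants and 3 in controls. By genotype at E13.5, 4 of the 10 endothelial markers were lower in mutants, and the endothelial sums did not overlap either. Summed myeloid markers spanned 92.1 to 142 CPM at E13.5. At E11.5 they had 87.3 and 77.3 CPM in mutants and 59.1 and 62.5 CPM in controls. Neuronal and glial markers spanned 245 to 294 CPM at E13.5. At E11.5 they had 279 and 205 CPM in mutants and 169 and 160 CPM in controls. Skeletal muscle markers had 555 and 209.7 CPM in E13.5 mutants and 149 and 138 CPM in E13.5 controls. At E11.5 they had 59.65 and 77.4 CPM in mutants and 37.3 and 50.3 CPM in controls. Of these lists, only skeletal muscle had no overlap between mutants and controls at E13.5, while none overlapped at E11.5. By genotype, 0 of 9 tested skeletal muscle markers passed at either stage. No marker found was at 0 in all libraries.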

How the data were processed

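Per the labels, total RNA of dissected tracheae was extracted with Trizol and made into Nextera XT libraries, which do not mark strand. The authors deposited 1 table per stage with raw counts and read densities for every library. The deposited counts are estimated counts, not whole for 76.3% to 82.6% of values above 0. The deposited densities are RPKM values per the file headers and the values. The submitters' processing notes name Cufflinks 2.0.2, DESeq, TopHat2 2.0.8 and Bowtie2 2.1.0, with build mm9. The counting tool and gene annotation are not given in the sources used here. Entries without a symbol (6 at E13.5, 2 at E11.5) held 0.000985% to 0.0253% of counts and were left out. No column with per-sample values lacked a sample (0 columns).

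Counts were summed per symbol and rounded. edgeR 4.0.16 (R 4.3.3; filterByExpr; TMM factors of 0.98 to 1.02; robust quasi-likelihood fit with 4 group means, all 8 libraries and 4 residual degrees of freedom) was fitted to 14903 genes, and p-values were adjusted by Benjamini-Hochberg over all of them. The common biological coefficient of variation was 7.79%. DESeq2 1.42.0, limma 3.58.1 (voom), other scalings, no filter, 4-library fits, a replicate block and leaving out each library were the alternatives. The fit was tested on simulated data with known fold changes. Promoter windows came from RefSeq (GRCm38.p6). No molecular identifiers are mentioned in the labels, so counting error alone understates the error of a count.

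The members and gene lists were chosen with earlier results of these data known. Members named with full values were 7 core genes, up to 6 further called members per comparison by size of change, or the 3 with the smallest p where none was called. From other lists up to 4 called genes per direction were named. Cdkn1c was named as well, for its part in a sum, after its values were seen. Members whose calls were lost without 1 library were named after their values were seen, as were the remaining members given by role. The list genes Ticrr, Bora, Snorc and Ahsp were not matched in the tables and are not analysed here.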

Additional observations from a re-analysis of the deposited data

Results flagged for a closer look

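In 7 genes, none of them among the 49, the genotype effect differed between the stages by the test of the stage by genotype interaction. Wls, the targeted gene, had an interaction of -0.67 (SE 0.09, adjusted p = 8.32e-04), with genotype values of -1.16 at E13.5 and -0.49 at E11.5. Myc had -0.76 (SE 0.11, adjusted p = 0.00184), with -0.83 at E13.5 and -0.07 at E11.5. Ccnd1 had -0.64 (SE 0.08, adjusted p = 9.23e-04), with -0.80 at E13.5 and -0.16 at E11.5. All 3 were thus lowered more by genotype at E13.5.

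Btg2 had 0.76 (SE 0.13, adjusted p = 0.00541), with 0.73 at E13.5 and -0.03 at E11.5. Btg1 had 0.40 (SE 0.08, adjusted p = 0.0106), with 0.37 at E13.5 and -0.03 at E11.5. E2f2 had 0.62 (SE 0.15, adjusted p = 0.0398), with 0.42 at E13.5 and -0.20 at E11.5. Ccnd2 had 0.39 (SE 0.09, adjusted p = 0.0308), with 0.31 at E13.5 and -0.08 at E11.5. The E2f2 call was lost in 9 of 16 alternatives, namely with DESeq2 (0.23) and limma-voom (0.071) and without each library other than E13.5 mutant replicate 2, with adjusted p of 0.0512 to 0.132. The Ccnd2 call was lost in 6, namely with limma-voom (0.0511) and without E13.5 mutant replicate 1 (0.0901), E13.5 control replicates 1 and 2 (0.148 and 0.0694), E11.5 mutant replicate 1 (0.078) and E11.5 control replicate 2 (0.162). The other 5 calls were kept in all 16.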

How the results depend on the processing

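The 13 alternatives kept 44 to 46 members called lower at E13.5 in mutants, 44 of them in every one, and 39 to 47 in controls, 38 in every one. The calls lost somewhere were Ccne1 and Prc1 in mutants, and Ccne1, Cdk1, Kif11, Mki67, Nusap1, Pola1, Prc1, Prim1 and Tyms in controls. DESeq2 called 44 in mutants and 41 in controls. Upper-quartile scaling and total counts without a scaling factor, both chosen after seeing the data, gave 46 and 44 in mutants and 43 and 44 in controls. Genotype and interaction gave 0 members in each of their 12, 12 and 16 alternatives. Same-numbered libraries did not deviate together (correlations -0.065 to 0.045). That does not exclude a pairing of the libraries, and the reported fit used none. With the replicate block 46 members were lower in mutants and 46 in controls, Tyms being lost at an adjusted p of 0.0546, and 0 passed by genotype; of the arrest genes, Cdkn1a and Ccng1 had an adjusted p of 0.0504 and 0.0552 by genotype at E13.5. Over all genes, calls ranged from 935 to 1910 for genotype at E13.5 (1757 in the reported fit), 20 to 120 at E11.5 (54) and 280 to 674 for the interaction (496). The replication members' median genotype value at E13.5 stayed between -0.12 and -0.08, and that of the mitosis members between 0.01 and 0.05. Over all 49 the median genotype value ranged from -0.0715 to -0.0075 at E13.5, with 27 to 32 below 0, and from -0.0089 to 0.0804 at E11.5, with 7 to 26 below 0. Among stage values, 1 changed sign, Ccne2 in controls without E13.5 control replicate 2. Genotype and interaction values, none of which passed, also changed sign in at least 1 alternative for many members. Of the 49, this held for 11 by genotype at E13.5, 25 by genotype at E11.5 and 21 for the interaction. With 1 library left out, the genotype value at E11.5 ranged from -0.0064 to 0.1509 for Cdk1, from -0.0457 to 0.1126 for Mcm2 and from -0.0188 to 0.0838 for Top2a. That at E13.5 ranged from -0.0913 to 0.0069 for E2f1, from -0.0777 to 0.0548 for Mcm2 and from -0.0293 to 0.0469 for Top2a, which was -0.0107 under upper-quartile scaling. The interaction ranged from -0.0878 to 0.027 for Ccnb1, from -0.0263 to 0.0988 for E2f1, from -0.1266 to 0.0312 for Mcm2, from -0.0715 to 0.0285 for Mki67 and from -0.0765 to 0.0256 for Top2a; the cause was not tested. With 2 libraries a group, a lone library left in a group is assumed to vary like the others, and intervals of about 0.14 on either side limit what a genotype comparison can show. Errors were wider at low counts, the standard error of the stage change in mutants being 0.11 for Ccne2 and 0.06 for Top2a.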
